A study of Rattus norvegicus with 19 samples.

Results

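Ribosomal protein genes were examined in hippocampal RNA of rats with a deleted or duplicated stretch of chromosome 1, the rat counterpart of human 16p11.2. Genes were taken by symbol (Rpl or Rps with a number, Rplp0 to Rplp2, and Rpsa), which matched 80 of the 32623 genes of the files (74 distinct symbols), and those with a mean of at least 5 CPM (counts scaled to library size) over all libraries were kept. The 56 genes so chosen encode 23 proteins of the small (40S) subunit, 31 of the large (60S) subunit and 2 of the stalk of the large subunit, and all 56 were among the 15440 genes tested. Just inside the minimum were *Rpl36a* (6.71 CPM), *Rpl31* (7.17 CPM) and *Rpl13* (7.27 CPM), and just outside it were *Rpl30* (4.29 CPM) and *Rpl21* (3.58 CPM).

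Each of the 19 libraries came from the hippocampus of 1 male Sprague Dawley rat, an outbred stock, and the animals were littermates in which CRISPR/Cas9 had removed or duplicated the *Sult1a1* to *Spn* interval. Wild-type animals (wt, n = 6) had 2 intact copies, Del/+ (n = 4) had 1 copy deleted, Dup/+ (n = 5) had 1 copy duplicated, and Del/Dup (n = 4) carried the deleted and the duplicated chromosome together. The changes are germline, and the labels do not give the age of the animals. For wt replicate 5 a field of its label gives Dup/+, while its description gives wt, which was used. Its level of *Mapk3*, a gene of the interval, stood with those of the other wt libraries, and the range of these 6 lay wholly under that of Dup/+.

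Ribosomal proteins, together with ribosomal RNA, build the particles that make all cellular protein, and their genes are active in every cell type. Cells make the proteins in matched amounts, since unpaired ones are degraded. Most of their transcripts begin with a cytosine and a run of pyrimidines, the terminal oligopyrimidine (TOP) motif, through which mTORC1 signalling controls their translation, and in neurons local translation near synapses depends on the ribosome supply. Mature messages are short and the mammalian genome holds many processed copies of them, so that short reads can align to several places.

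The start-site motif was visible in the rat genome. RefSeq promoter windows (assembly GRCr8, a different assembly from that used for counting) were found for 45 of the 56 genes, 46 windows in all. A C at the annotated start, with pyrimidines alone over the first 5 bases from there, was present in 17 of the 46 (37.0%), against 2.63% of 33465 promoter windows of all genes. Within 25 bases before and 25 after the start, on the coding strand, a run of at least 8 pyrimidines occurred in 35 windows (76.1%), against 19.4% of all windows. Within the same 25 bases on either side of the start, the letters CTTTCC occurred on either strand in 16 windows (34.8% against 4.40%). There CTTCCG occurred in 8 (17.4% against 4.95%) and TATAAA in 2 (4.35% against 1.69%), and letters farther upstream were not counted. A CTTTCC match on the coding strand lies inside a pyrimidine run. The 8 windows below belong to genes described in the following paragraphs, and the capitals mark the longest pyrimidine run.
Rplp0 (chr12:46718366-46718415, minus strand): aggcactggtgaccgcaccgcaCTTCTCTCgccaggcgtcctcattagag
Rplp1 (chr8:71290848-71290897, minus strand): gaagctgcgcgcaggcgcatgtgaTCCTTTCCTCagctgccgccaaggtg
Rpl31 (chr9:49143086-49143135, plus strand): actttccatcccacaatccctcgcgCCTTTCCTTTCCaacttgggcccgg
Rps18 (chr20:4933720-4933769, plus strand): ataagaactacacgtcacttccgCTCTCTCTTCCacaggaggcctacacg
Rps24 (chr16:96492-96541, plus strand): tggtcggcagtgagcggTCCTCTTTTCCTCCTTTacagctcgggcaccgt
Rpl13a (chr1:104748889-104748938, minus strand): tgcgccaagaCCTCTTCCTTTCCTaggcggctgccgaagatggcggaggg
Rps2 (chr10:14251823-14251872, plus strand): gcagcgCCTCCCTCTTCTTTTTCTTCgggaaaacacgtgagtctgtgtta
Rpl3 (chr7:113507966-113508015, minus strand): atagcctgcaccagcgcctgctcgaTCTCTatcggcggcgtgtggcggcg
The annotated start follows the first 25 bases of each line. *Rplp0*, *Rplp1*, *Rpl31* and *Rps18* had a C at the start followed by further pyrimidines, in *Rpl31* as the first base of the marked run and in the other 3 after 1 to 3 pyrimidines upstream, while in *Rpl13a* the long run lay upstream of it, in *Rps2* it began upstream and ended at the start base, and in *Rpl3* the run was 5 bases long and led by T.

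Total counts over genes ran from 16191192 to 38760645 per library. Reads aligned to more than 1 place, which the counting left out of every gene, made up 40.1% to 47.6% of the counted lines in wt and 45.1% to 50.5% in Dup/+. The share was 57.8% to 70.7% in Del/Dup and 41.6% to 76.3% in Del/+, where replicate 4 alone was in the wt range. The labelled genotypes were visible in *Mapk3*, a kinase gene of the interval, at 41.0 to 60.9 CPM in Del/+ and 129 to 154 CPM in Dup/+, against 88.5 to 98.4 CPM in wt and 81.2 to 98.5 CPM in Del/Dup. Neuronal markers summed to 5677 to 6728 CPM over all libraries (each of the 6 genes was detected), astrocyte markers to 4273 to 5375 CPM, microglial markers to 177 to 228 CPM, endothelial markers to 141 to 184 CPM (1 of the 4 listed in the files at 0) and ependymal markers to 3.26 to 9.39 CPM. The 6 choroid plexus markers, none of them at 0 throughout, summed to 3.78 to 35.0 CPM in wt and 41.7 to 1211 CPM in Del/Dup. In Del/+ they summed to 5.21 to 1261 CPM and in Dup/+ to 6.73 to 408 CPM. The 6 oligodendrocyte markers summed to 4995 to 6468 CPM in wt and 5882 to 8819 CPM in Del/+, and to 5888 to 6754 CPM in Dup/+ and 5806 to 7089 CPM in Del/Dup. The 4 red cell markers summed to 117 to 159 CPM in wt and 180 to 243 CPM in Dup/+, and to 103 to 162 CPM in Del/+ and 132 to 164 CPM in Del/Dup. EdgeR called 3 of these 4 higher in Dup/+ against wt, where it called 0.272% of all genes tested. It called 3 lower in Del/+ against Dup/+, where it called 0.784% of all genes tested. The part of the cell type markers in the values below was not tested. Fewer cells of a type and less RNA per cell cannot be told apart in bulk tissue.

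EdgeR called no ribosomal protein gene in any comparison of genotypes. Against wt, DESeq2 called *Rps25* and *Rps28* in Del/+, where it called 4.24% of all genes tested. It called *Rps18* and *Rps28* in Del/Dup against wt, where it called 1.19% of all genes tested. The joint level of the 56 genes varied between animals of 1 genotype by more than it differed between genotypes. The joint level differed from wt by a median of 0.04 (log2) in Del/+ and 0.05 in Dup/+, and by -0.01 in Del/Dup. Single genes whose levels did not overlap with wt were *Rps18*, *Rps28* and *Rpl13a* in Del/Dup and *Rps24* and *Rps25* in Del/+, none of which had an edgeR adjusted p under 0.05 over all genes. They made up 3 of 56 members in Del/Dup, against 2.56% of all genes tested, and 2 of 56 in Del/+, against 4.94%.

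The joint level was first compared across libraries. Summed over the 56 genes, it was 3089, 3150, 3154, 3331, 3369 and 3410 CPM in the wt libraries from lowest to highest. It was 3189, 3296, 3343 and 3450 CPM in Del/+, 3185, 3256, 3331, 3357 and 3682 CPM in Dup/+, and 3032, 3199, 3260 and 3375 CPM in Del/Dup. Dup/+ replicate 1 was the highest of all libraries and Del/Dup replicate 3 the lowest, and every pair of genotypes overlapped.

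On the log2 scale, the median difference of the 56 genes from their own wt means ranged from -0.08 to 0.08 over the wt libraries and from -0.13 to 0.08 over Del/Dup. It ranged from -0.03 to 0.09 over Del/+ and from -0.04 to 0.20 over Dup/+. Genes above their own wt mean numbered 11, 16, 46, 38, 22 and 45 of 56 in wt replicates 1 to 6, and 51, 39, 22 and 34 in Del/+ replicates 1 to 4. They numbered 52, 42, 37, 25 and 28 in Dup/+ replicates 1 to 5, and 40, 13, 31 and 32 in Del/Dup replicates 2 to 5. Over all 15440 genes tested, the share above the wt mean was 49.0% to 51.1% in each library. The wt animals alone ran from 11 to 46 of 56.

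**Figure D1:**
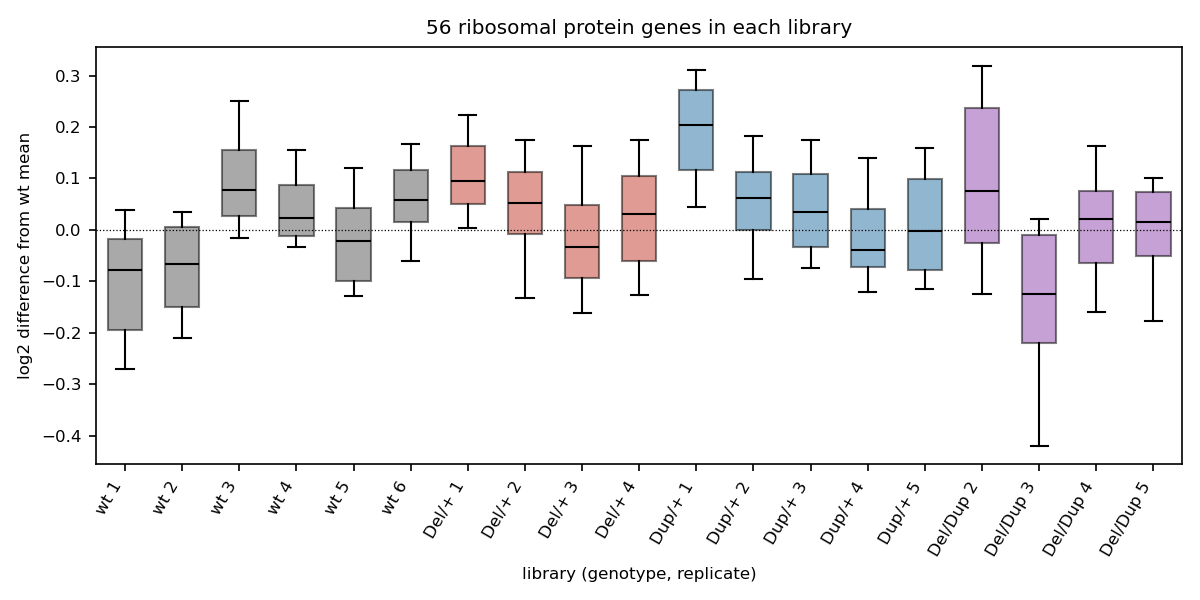
Log2 difference of the 56 ribosomal protein genes from their wt means (vertical axis) in each of the 19 libraries (horizontal axis, coloured by genotype); boxes span the quartiles, lines inside them are medians, and whiskers run from the 10th to the 90th percentile. Dup/+ replicate 1 (median 0.20) stands highest and Del/Dup replicate 3 (median -0.13) lowest, and the wt medians run from -0.08 to 0.08.

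The 40S genes, the 60S genes and the initiation factors had the same libraries at the extremes, while in the other gene groups the lowest or the highest library differed. In Dup/+ replicate 1 the median difference from wt was 0.22 over the 40S genes and 0.20 over the 60S genes, and in Del/Dup replicate 3 it was -0.13 and -0.12. Dup/+ replicate 1 also stood at 0.19 over the 13 tested genes of other TOP mRNAs, at 0.10 over 44 ribosome biogenesis genes and at 0.08 over 35 translation initiation factors. In Del/Dup replicate 3 these were -0.02, 0.00 and -0.05, and the lowest library was Del/Dup replicate 4 for the other TOP mRNAs (-0.06) and Del/Dup replicate 2 for ribosome biogenesis (-0.04). The mitochondrial ribosomal proteins and the respiratory chain subunits were highest in Del/+ replicate 1 (0.11 and 0.14).

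Single genes differed in how closely they held their level. The standard deviation within genotype, on the log2 scale, had a median of 0.12 over the 56 genes (0.06 to 0.47), against a median of 0.10 over the 10899 genes tested with a mean of at least 5 CPM, and was below 0.2 for 49 of the 56 and for 9956 of the 10899. The steadiest was *Rpl6*, a 60S gene, with 46.1 to 54.7 CPM over all libraries, and the most variable was *Rps2*, with 8.94 to 29.0 CPM. Both were named after their values were seen, *Rps2* also by its fold changes below. CPM was not scaled to gene length and left out reads with several places, so the order of genes by CPM served here to choose and arrange them and was not read as an order of expression.

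The members with the highest CPM were *Rpl3*, a core protein of the peptidyl transferase region, *Rplp0*, the base of the stalk that recruits elongation factors, and *Rpl4*, a protein of the exit tunnel. *Rpl3* had 304 to 370 CPM over all libraries, and its mean was 326 ± 13.9 (SD, n = 4) in Del/+, 334 ± 26.0 (n = 5) in Dup/+ and 313 ± 8.76 (n = 4) in Del/Dup, beside 314 to 339 CPM in wt. *Rplp0* had 217 to 252 CPM in wt, and 236, 211, 215 and 219 CPM in Del/+. It had 223 to 249 CPM in Dup/+ and 210 to 233 CPM in Del/Dup. Its log2 fold change was -0.11 ± 0.05 (SE) in Del/+ against wt (edgeR adjusted p = 0.228) and -0.11 ± 0.05 in Del/+ against Dup/+ (edgeR adjusted p = 0.334), and the ranges overlapped. *Rpl4* ran from 213 to 242 CPM, and *Rpsa*, the laminin receptor homolog of the 40S subunit, from 116 to 142 CPM.

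*Rplp1*, whose protein pairs with that of *Rplp2* on the stalk, was among the more variable members. It stood at 24.7 to 44.5 CPM in wt and 19.9 to 34.9 CPM in Del/Dup, with the lowest value in Del/Dup replicate 3. In Del/+ it had 30.2 to 38.3 CPM and in Dup/+ 33.0 to 40.9 CPM. At the low end, *Rpl13* had 4.45 to 10.3 CPM, *Rpl31* 6.14 to 8.71 CPM and *Rpl36a* 5.53 to 7.85 CPM over all libraries, and the genotypes overlapped in each.

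**Figure D2:**
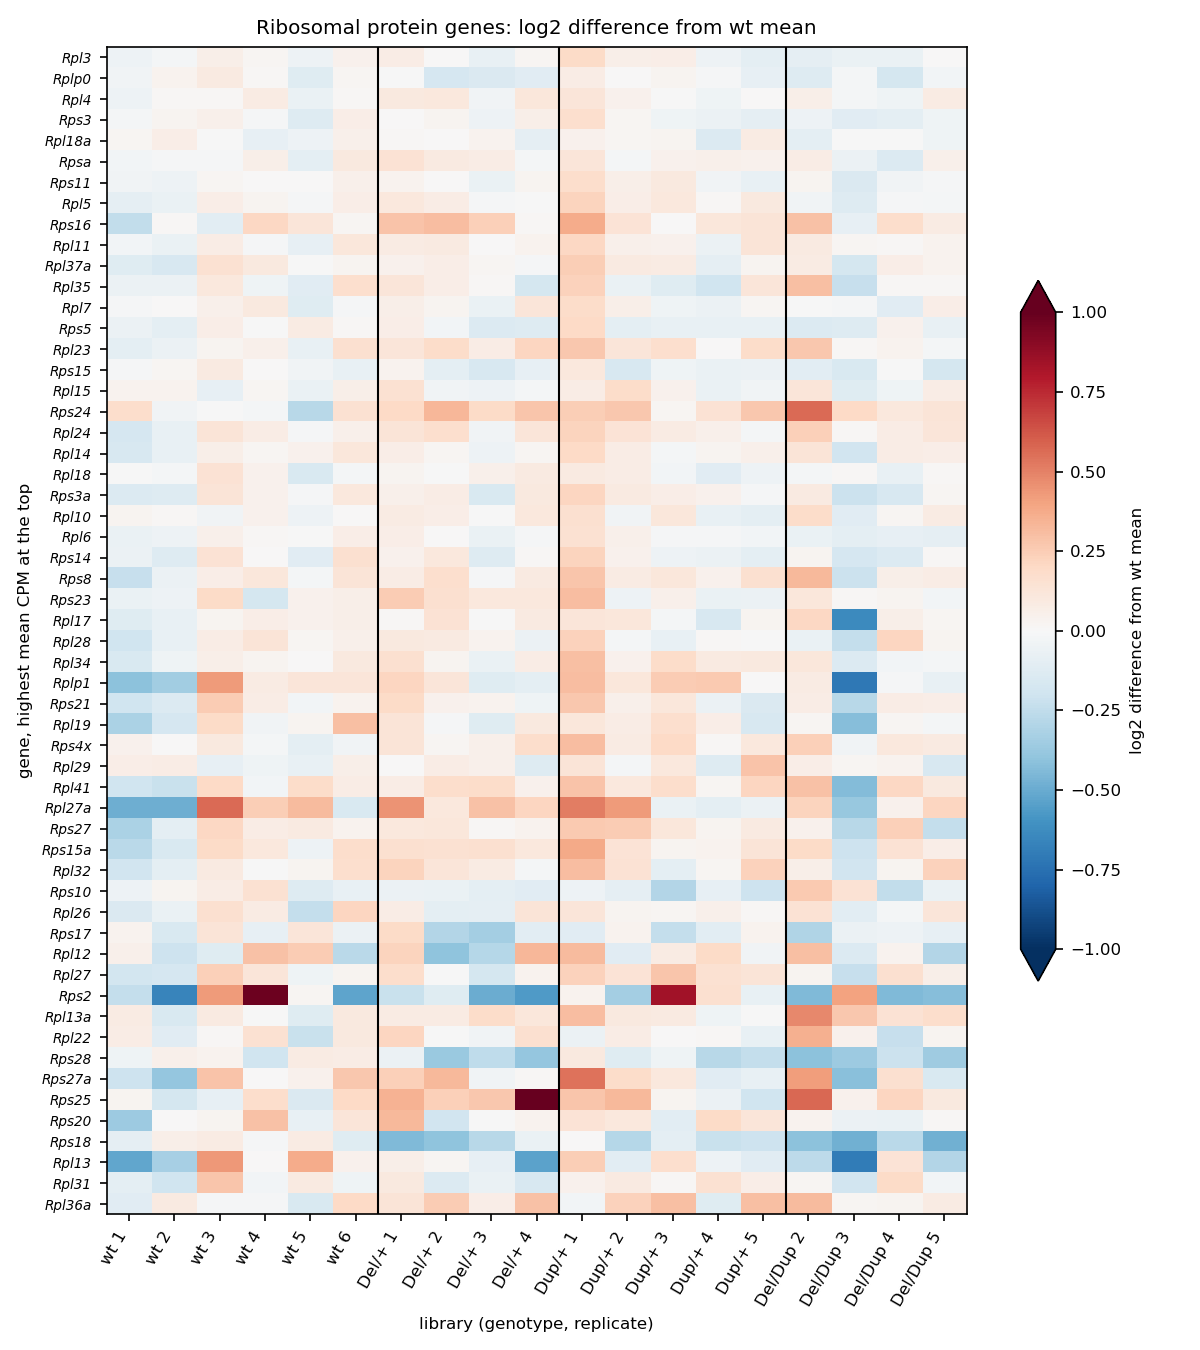
Log2 difference of each of the 56 ribosomal protein genes from its wt mean (colour, saturated at 1) in each library (columns, grouped by genotype), with genes ordered by mean CPM from the highest at the top. The column of Dup/+ replicate 1 is mostly above the wt mean (52 of 56 genes) and that of Del/Dup replicate 3 mostly below it (13 of 56 above), while *Rps25* in Del/+ replicate 4 and *Rps2* in wt replicate 4 and Dup/+ replicate 3 stand out singly.

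Del/+ was compared with wt, to ask whether loss of a copy of the interval went with a change of ribosomal protein transcripts. None of the 56 genes had an edgeR adjusted p under 0.05 (smallest 0.0831), where 0.771% of all genes tested (119 genes) were called. That number ran from 46 without Del/+ replicate 2 to 337 without Del/Dup replicate 2. At an unadjusted p under 0.05 there were 8 of 56 (5 higher and 3 lower), or 14.3%, against 18.4% of all genes tested. Without Del/+ replicate 2 there were 4 of 56 and 2004 of 15601 genes, and without wt replicate 1 there were 5 of 56 and 2488 of 15411 genes. DESeq2 called 2 of 56, *Rps25* and *Rps28*, where it called 4.24% of all genes, and gave no adjusted p for 4 of them, *Rps18* included. The median log2 fold change of the 56 genes was 0.04 (quartiles 0.00 and 0.09), against 0.00 over all genes tested, and 42 of 56 were above 0 (16 of 23 of the 40S and 25 of 31 of the 60S). Without wt replicate 1 the median was 0.01 and 34 of 56 were above 0. The 95% interval of the fold change lay within 1.2-fold in either direction for 33 of 56.

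The genes at the ends of this comparison were *Rps25* and *Rps2*. *Rps25*, a 40S protein known for its part in internal ribosome entry, stood at 9.07, 7.82, 8.37, 10.1, 7.98 and 10.3 CPM in wt and at 11.5, 10.6, 10.8 and 22.5 in Del/+ replicates 1 to 4. All Del/+ libraries were above all wt libraries, with replicate 4 far above the rest, and the log2 fold change was 0.64 ± 0.18 (SE, edgeR adjusted p = 0.0860). Without Del/+ replicate 4 it was 0.30 (edgeR adjusted p = 0.309). With the share of reads with several places in the fit it was 1.08 (edgeR adjusted p = 0.00253). Replicate 4 was the only Del/+ library with such a share in the wt range. *Rps2*, a protein at the messenger entry channel, stood at 12.2, 8.94, 19.6, 29.0, 14.6 and 9.83 CPM in wt and at 12.3, 13.2, 10.1 and 9.57 in Del/+, all inside the wt range (log2 fold change -0.48 ± 0.29, edgeR adjusted p = 0.389). Without wt replicate 4, the highest, it was -0.21 (edgeR adjusted p = 0.680).

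The groups did not overlap for 2 of the 56 genes, *Rps25* and *Rps24*, against 4.94% of all genes tested. *Rps24*, a 40S gene mutated in some families with Diamond-Blackfan anaemia, stood at 48.2 to 66.1 CPM in wt and 67.2, 73.8, 66.8 and 70.8 in Del/+ (log2 fold change 0.25 ± 0.09, edgeR adjusted p = 0.140).

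Dup/+ was compared with wt in the same way. No member was called (smallest edgeR adjusted p = 0.467), where 0.272% of all genes tested were called in edgeR and 0.518% in DESeq2, which called no member either. The edgeR number over all genes was 42, and ran from 27 without Dup/+ replicate 1 or wt replicate 1 to 44 without Del/Dup replicate 3, and was 12 with wt replicate 5 counted as Dup/+. At an unadjusted p under 0.05 there were 7 of 56 (6 higher and 1 lower), or 12.5%, against 8.94% of all genes tested. Without Dup/+ replicate 1 there were 2 of 56, and 1136 of the 15428 genes then tested, and with wt replicate 5 counted as Dup/+ there were also 2 of 56, and 1137 of 15440 genes. No member separated the groups, against 1.17% of all genes. The median log2 fold change was 0.05 (quartiles 0.01 and 0.12), and 46 of 56 genes were above 0 (17 of 23 of the 40S and 27 of 31 of the 60S), against 49.2% of all genes. Without Dup/+ replicate 1 the median was 0.02 and 34 of 56 were above 0. The interval lay within 1.2-fold for 34 of 56.

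At the ends of the Dup/+ comparison were *Rps24* and *Rps18*. *Rps24* stood at 69.3, 70.7, 59.1, 64.5 and 70.7 CPM in Dup/+, partly inside the wt range (log2 fold change 0.19 ± 0.08, edgeR adjusted p = 0.514). *Rps18*, a protein of the 40S head, stood at 10.0, 8.13, 9.32, 8.51 and 8.58 CPM, also partly inside the wt range (log2 fold change -0.17 ± 0.08, edgeR adjusted p = 0.551).

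**Figure D3:**
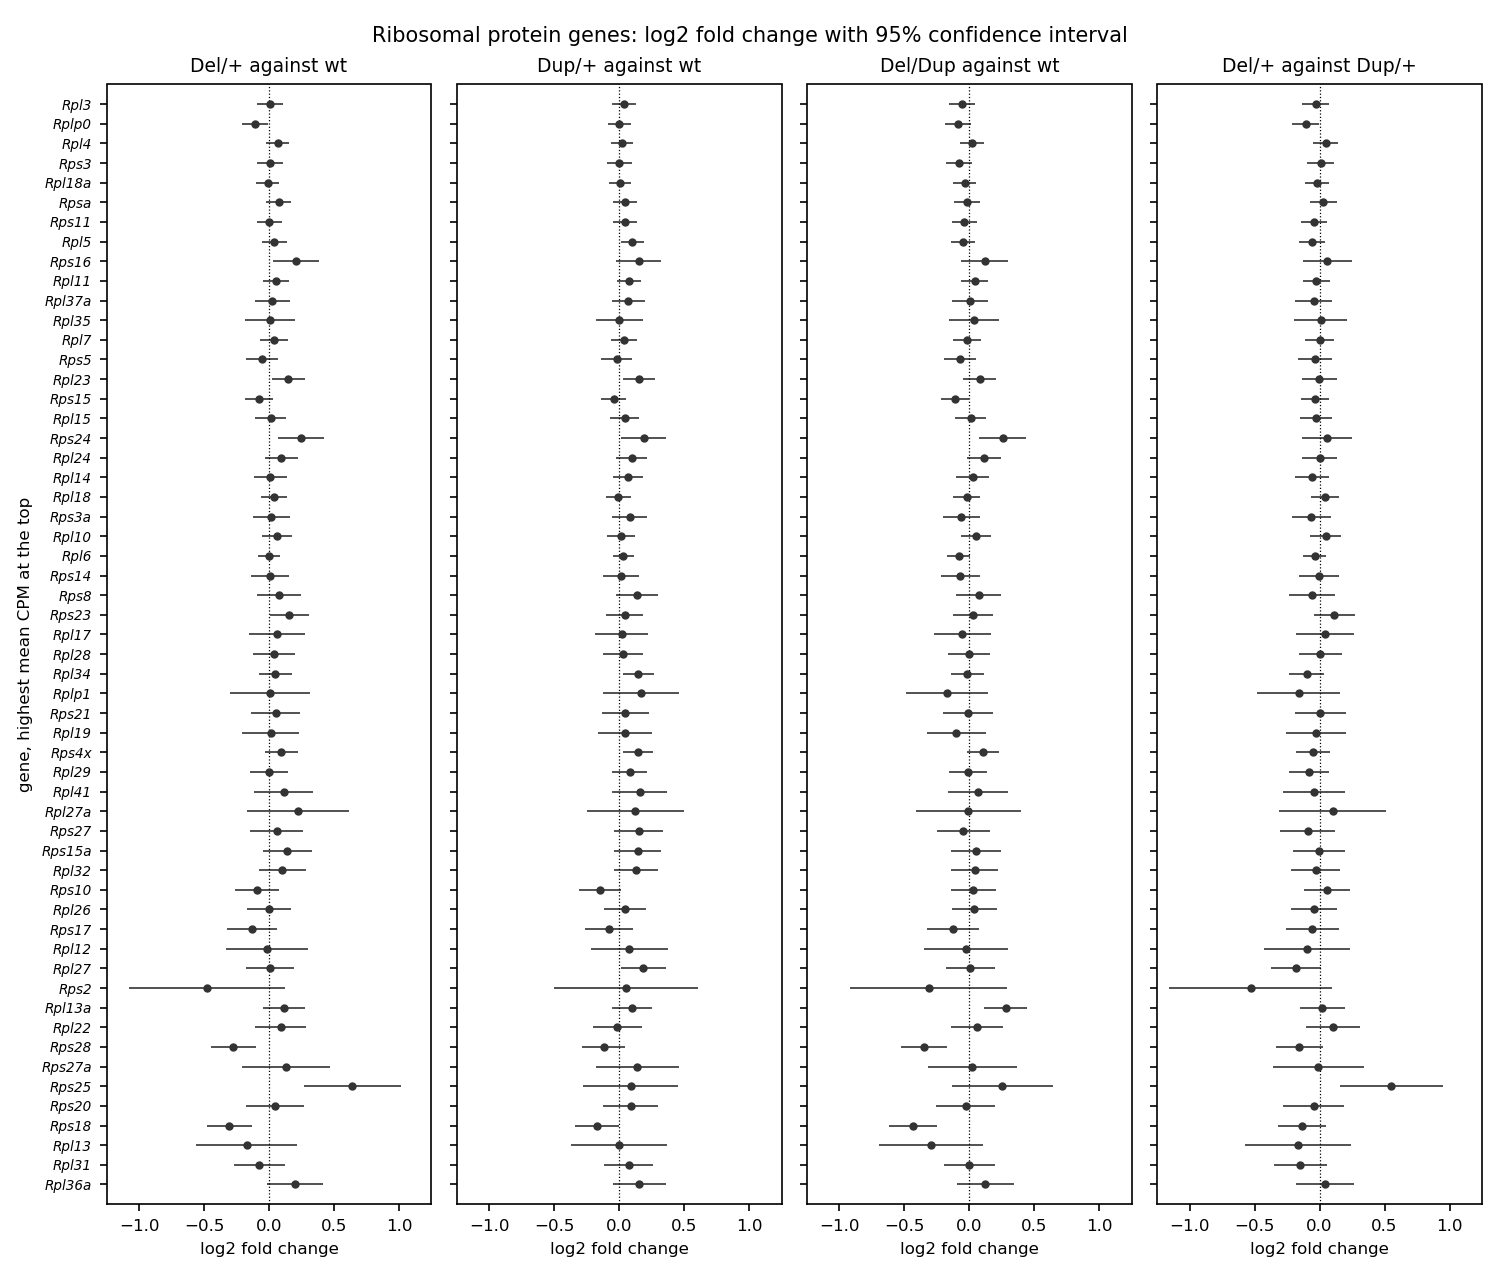
Log2 fold change (horizontal axis) of each ribosomal protein gene (vertical axis, ordered by mean CPM) in the 4 comparisons, with 95% confidence intervals. Most points lie near 0, with medians of 0.04, 0.05, -0.01 and -0.03 from left to right, and *Rps25*, *Rps2*, *Rps18* and *Rps28* lie farthest from it.

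Del/Dup was compared with wt, where the number of interval copies is the same. No member was called (smallest edgeR adjusted p = 0.0568), where 0.0907% of all genes tested (14 genes) were called. That number over all genes ran from 2 without Del/Dup replicate 4 to 216 without Del/Dup replicate 3, and was 91 without wt replicate 5 and 57 with that library counted as Dup/+. At an unadjusted p under 0.05 there were 5 of 56 (2 higher and 3 lower), or 8.93%, against 16.2% of all genes, and without Del/Dup replicate 2 there were 3 of 56 and 1292 of 15579 genes. DESeq2 called 2, *Rps18* and *Rps28*, where it called 1.19% of all genes. The median log2 fold change was -0.01 (quartiles -0.06 and 0.04), with 26 of 56 above 0, and with libraries scaled by size alone the median was 0.01 and 34 were above 0. Without Del/Dup replicate 2 the median was -0.04 and 17 were above 0, and without Del/Dup replicate 3 it was 0.04 and 34 were above 0. The interval lay within 1.2-fold for 39 of 56.

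The groups did not overlap for 3 of 56 genes (*Rps18*, *Rps28* and *Rpl13a*), against 2.56% of all genes tested. *Rps18* stood at 9.39, 10.4, 10.6, 9.90, 10.6 and 9.16 CPM in wt and at 7.38, 7.01, 8.22 and 7.01 in Del/Dup, all below wt. Its log2 fold change was -0.43 ± 0.09 (SE, edgeR adjusted p = 0.0568), and it was the member with the smallest adjusted p in any comparison. Leaving out wt replicate 5, Del/+ replicate 4 or Del/Dup replicate 3 brought the edgeR adjusted p to 0.0427, 0.0213 and 0.0440. Other single omissions raised it. With wt replicate 1, 2 or 3 dropped, the smallest edgeR adjusted p of any member was 0.131, 0.152 and 0.134. Dropping replicate 2 or 4 of Del/Dup gave 0.166 and 0.127 for that smallest value, and *Rps18* was no lower. In Del/+ *Rps18* stood at 7.23, 7.42, 8.16 and 9.54 CPM, the highest being replicate 4. The share of reads with several places was 41.6% in that library, while that of replicates 1 to 3 was 63.9% to 76.3%. The log2 fold change in Del/+ against wt was -0.30 ± 0.08 (edgeR adjusted p = 0.0831, the smallest of the members in that comparison), and -0.39 without replicate 4 (edgeR adjusted p = 0.0443). Over the alternatives run it went from -0.39 to -0.07, and the level in Del/+ replicate 4 lay inside the wt range. With the share of reads with several places in the fit, the log2 fold change of *Rps18* was -0.29 in Del/Dup (edgeR adjusted p = 0.275) and -0.17 in Del/+ (edgeR adjusted p = 0.467).

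*Rps28*, a small 40S protein near the messenger exit, was chosen after its values were seen. It stood at 12.4, 13.2, 13.1, 11.1, 13.5 and 13.5 CPM in wt, at 9.49, 9.84, 10.9 and 9.87 in Del/Dup, and at 12.3, 9.76, 10.7 and 9.67 in Del/+. The log2 fold change from wt was -0.35 ± 0.09 in Del/Dup (edgeR adjusted p = 0.107) and -0.27 ± 0.08 in Del/+ (edgeR adjusted p = 0.103). *Rpl13a*, a 60S protein known from the interferon-gamma translation control complex, stood at 13.9, 11.7, 13.9, 13.1, 12.0 and 14.1 CPM in wt. In Del/Dup it stood at 18.4, 15.9, 14.5 and 14.8, all above wt (log2 fold change 0.28 ± 0.08, edgeR adjusted p = 0.149). Over the alternatives run the log2 fold change in Del/Dup went from -0.45 to -0.30 for *Rps28* and from 0.20 to 0.33 for *Rpl13a*. Choroid plexus markers were also higher in Del/Dup than in wt, and oligodendrocyte markers stood at 5806 to 7089 CPM against 4995 to 6468 CPM. All Del/Dup libraries had more reads with several places than any wt library, and the part of these in the 3 genes cannot be told apart from genotype within this design.

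**Figure D4:**
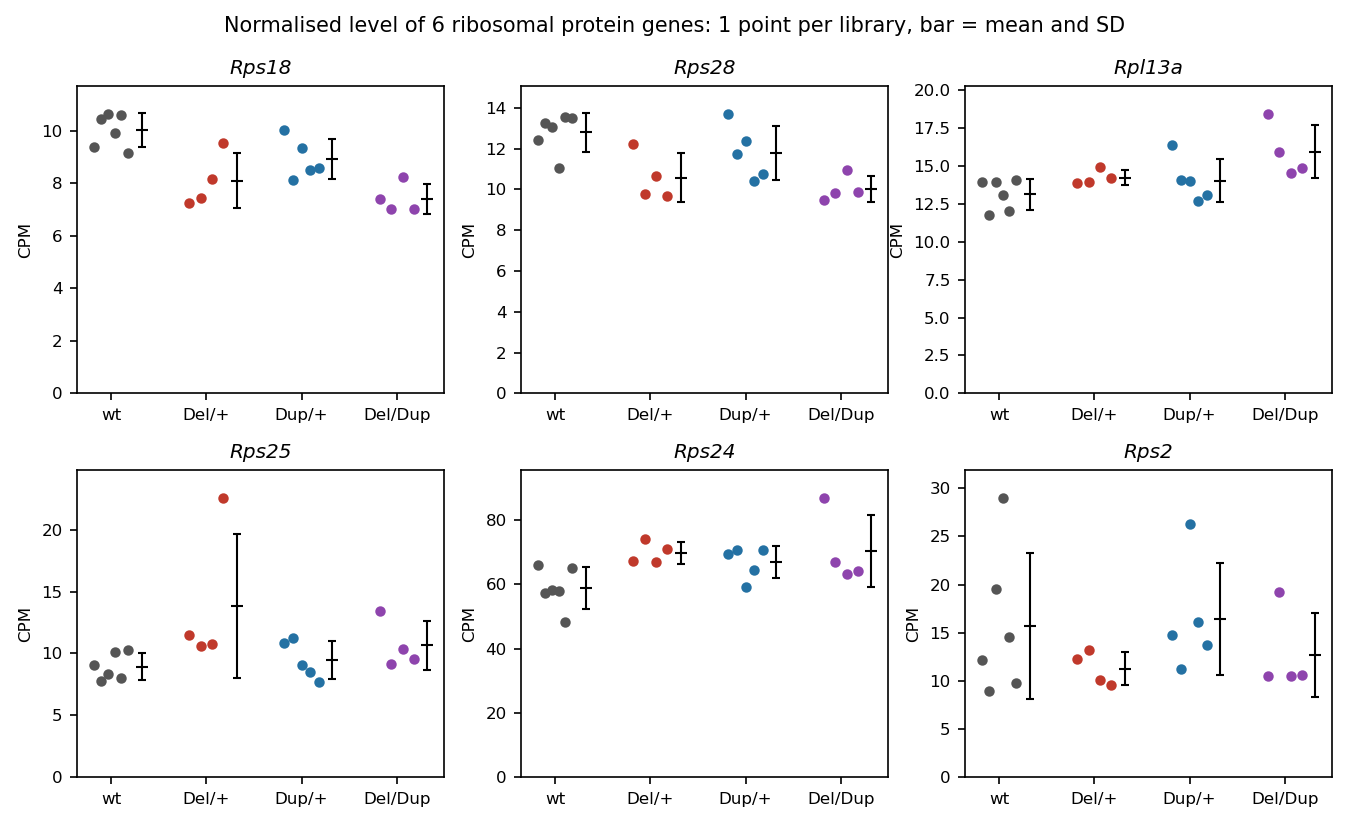
Level in CPM (vertical axes, from 0) of 6 ribosomal protein genes by genotype (horizontal axis), with 1 point per library and the mean with SD beside it. All 4 Del/Dup points lie below wt in *Rps18* (7.01 to 8.22 against 9.16 to 10.6) and in *Rps28*, and above wt in *Rpl13a*, while *Rps25* has 1 high point (22.5) in Del/+.

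Del/+ was compared with Dup/+, the groups farthest apart in copy number. No member was called by edgeR (smallest adjusted p = 0.204) or DESeq2, where 0.784% and 1.73% of all genes tested were called. The edgeR number was 121 genes, and ran from 60 without Del/+ replicate 2 to 194 without Del/Dup replicate 2. At an unadjusted p under 0.05 there were 2 of 56 (*Rps25* higher and *Rplp0* lower in Del/+), or 3.57%, against 13.5% of all genes, and no member separated the groups, against 5.3% of all genes. The median log2 fold change was -0.03 with 18 of 56 above 0, which became 24 with libraries scaled by size alone and 29 without Dup/+ replicate 1, and the interval lay within 1.2-fold for 38 of 56. The ends were *Rps25* (0.55 ± 0.19, edgeR adjusted p = 0.204) and *Rps2* (-0.53 ± 0.30, edgeR adjusted p = 0.456). Without Del/+ replicate 4 the log2 fold change of *Rps25* was 0.21 (edgeR adjusted p = 0.618), and without Dup/+ replicate 3 that of *Rps2* was -0.31 (edgeR adjusted p = 0.700). With the share of reads with several places in the fit, that of *Rps25* was 0.90 (edgeR adjusted p = 0.0104). Replicate 4 was the only Del/+ library with such a share in the wt range. The comparisons with wt share the wt libraries, and this one shares its libraries with them.

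Related genes outside the symbol rule were set beside the members. The expressed gene named *Rack1*, a 40S scaffold for signalling kinases, stood at 118 to 138 CPM, and *Fau*, which encodes a 40S protein fused to a ubiquitin-like one, at 14.2 to 23.7 CPM, with no edgeR call in any comparison. A second gene of the name *Rack1* stood at 1.59 to 3.01 CPM.

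Among the wider gene lists of protein synthesis, edgeR made a single call over the 4 comparisons, that of *Eif3c* in Del/Dup against wt, a gene for a subunit of the initiation factor that binds the 40S subunit. Where *Eif3c* lies relative to the interval was not examined, and an effect of the rearranged ends on its level was not tested. *Eif3c* stood at 233, 231, 231, 219, 215 and 229 CPM in wt and at 205, 200, 205 and 221 in Del/+. It stood at 237, 232, 246, 227 and 225 CPM in Dup/+ and at 176, 199, 188 and 188 in Del/Dup, where all libraries were below wt. The level in Del/Dup fell by 0.27 ± 0.04 (SE) on the log2 scale (edgeR adjusted p = 0.0129). With the share of reads with several places in the fit it was -0.22 (edgeR adjusted p = 0.167), and without Del/Dup replicate 2 or 4 the adjusted p was 0.0503 and 0.0724. DESeq2 called *Eif3c* in Del/Dup against wt (adjusted p = 2.53e-07), in Del/+ against wt (adjusted p = 0.0444) and in Del/+ against Dup/+ (adjusted p = 0.00953). EdgeR gave a log2 fold change of -0.12 (adjusted p = 0.124) in Del/+ against wt and -0.17 (adjusted p = 0.0730) in Del/+ against Dup/+, where the adjusted p was 0.0464 without Del/+ replicate 4 and 0.0485 without Del/Dup replicate 2. With the share of reads with several places in the fit these became -0.08 (edgeR adjusted p = 0.553) and -0.13 (edgeR adjusted p = 0.288), and in the libraries with under 55% of such reads -0.03 (edgeR adjusted p = 0.871) and -0.08 (edgeR adjusted p = 0.682), where Del/+ is replicate 4 alone.

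EdgeR called no gene in any comparison among the 9 tested elongation and termination factors, 13 other TOP mRNAs, 44 ribosome biogenesis genes, 5 ribosomal protein paralogs, 72 mitochondrial ribosomal protein genes, 80 nuclear genes of respiratory chain subunits or the 1 tested snoRNA host gene, nor among the other 34 of the 35 initiation factors. The share above 0 in Del/+ against wt was 57 of 72 for mitochondrial ribosomal proteins (median 0.06) and 69 of 80 for respiratory chain subunits (median 0.07), beside 42 of 56 for the cytoplasmic ribosomal proteins (median 0.04). In Dup/+ it was 49 of 72 and 62 of 80, and in Del/Dup 49 of 72 and 43 of 80.

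The 24 genes with a ribosomal protein symbol but under 5 CPM included many of the core ribosome, and 8 had no read in any library. These 8 were *Rpl10a*, *Rpl23a*, *Rpl35a*, *Rpl39*, *Rpl8*, *Rps29* and both genes of the name *Rpl7a*. For reads with 1 place, a count of 0 allows a level of up to 0.0774 to 0.185 CPM per library (3 counts of the total, counting error only). It sets no limit on reads with several places. *Rps9* had 0 to 2 reads. RefSeq (GRCr8) listed 1 to 36 pseudogene or like entries named after each of the 56 members, 767 in all (median 14), and 0 to 27 for the 18 other symbols (median 15.5), and 37.5% of the member symbols and 50.0% of the others had more than 15. Whether these genes were unexpressed or their reads were left out for having several places cannot be told apart from these counts.

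Some genes below the minimum had many reads in some animals and few or none in others, or 1 library far above the rest. *Rps6*, whose protein is the classic substrate of S6 kinase, *Rps19* and *Rpl21* were chosen after their values were seen. *Rps6* had 136, 0, 125, 2, 120 and 108 reads in wt, 1, 0, 170 and 201 in Del/+, 0, 121, 0, 0 and 0 in Dup/+, and 0, 86, 0 and 0 in Del/Dup. It had 86 to 201 reads in some libraries of every genotype and 0 to 2 in the rest. *Rps19* had 56 and 24 reads in wt replicates 5 and 6, 104 in Del/+ replicate 4, 91 in Dup/+ replicate 5 and 0 to 6 elsewhere. *Rplp2*, the stalk partner of *Rplp1*, had 0 to 50 reads except for 101 in Dup/+ replicate 4. The best covered *Rpl21* gene had 303 reads in Dup/+ replicate 1 and 50 to 114 elsewhere. For *Rps6* the log2 fold change in Dup/+ was -1.55 ± 1.30 (edgeR adjusted p = 0.762). None of the 9 genes under the minimum that were tested was called by edgeR in any comparison, and the other 15 were not tested.

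**Figure D5:**
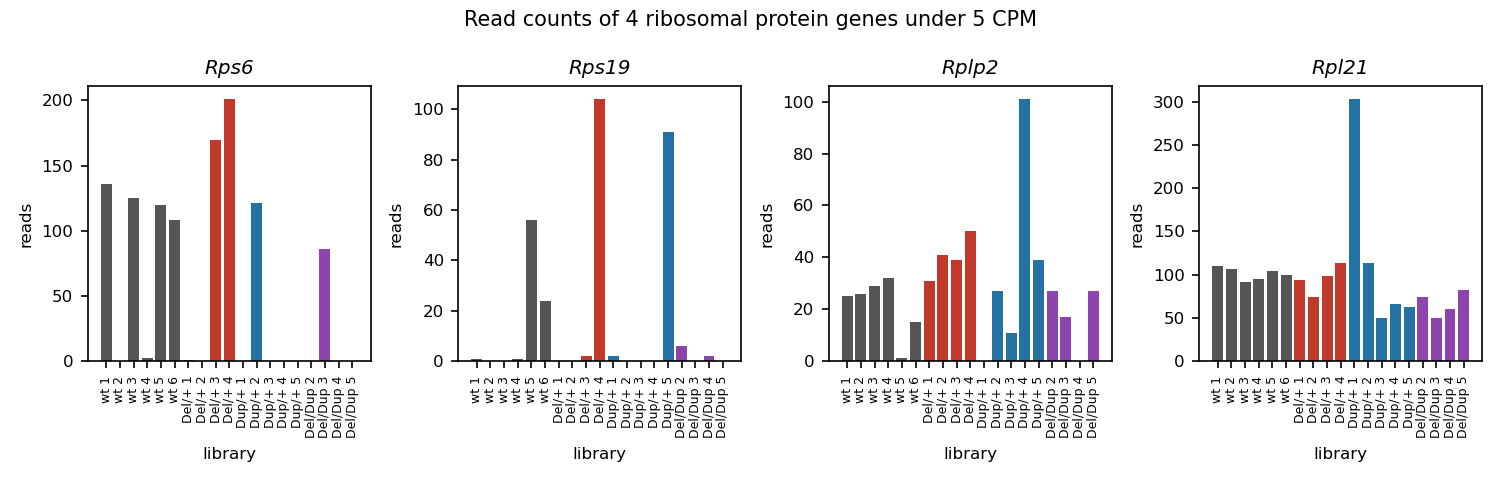
Reads per library (vertical axes, from 0) of *Rps6*, *Rps19*, *Rplp2* and the best covered *Rpl21* gene in the 19 libraries (horizontal axes, coloured by genotype). *Rps6* has 86 to 201 reads in 8 libraries, spread over all genotypes, and 0 to 2 in the other 11.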

How the data were processed

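Hippocampal RNA of 19 rats was sequenced. The authors prepared stranded total RNA libraries (rRNA depletion per the protocol, polyA RNA per another label field, unsettled here), demultiplexed with bcl2fastq 2.17.1.14, aligned single-end reads with HISAT2 to Rno6 (rn6, Ensembl) and counted with HTSeq, per the submitters' notes and the study's methods. Values were deposited as raw counts of reads, 1 file per library, without normalization. Reads aligned to several places count for no gene, which lowers genes with near-identical copies. The 5 summary lines were left out of totals.

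Levels are CPM on library sizes scaled by TMM. The 15440 genes passing filterByExpr (of 24345 with a read) were tested in edgeR 4.0.16 (R 4.3.3) by quasi-likelihood F tests, all 19 libraries in 1 fit, Benjamini-Hochberg adjusted p under 0.05. Differences from wt means used log2(CPM + 0.5). DESeq2 1.42.0 and other scalings, filters, sample sets and a replicate block were alternatives. Depth was 16191192 to 38760645 reads, and spread between animals (common biological coefficient of variation 0.101) limited precision. The fit was tested on simulated data. Samples were grouped by the description label. Same-numbered libraries did not deviate together (correlations -0.22 to 0.14 over 24 pairs), so numbers were not treated as pairs. The members and lists were chosen with earlier results of these data known. Genes named singly are the 3 highest and 3 lowest members by CPM, the stalk genes and *Rpsa*, the members with the largest and smallest fold change per comparison, called genes, and *Rack1* and *Fau*. A gene that the rule also names is not reported here. Others are marked as chosen after their values were seen. Gene models of Rno6 were not used here.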

Additional observations from a re-analysis of the deposited data

Results flagged for a closer look

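Among 17 genes named by rule and 2 measures of the joint level (summed CPM and median difference from wt), 76 groups of 4 to 6 libraries were examined for a library far from the others, and 4 were found, where chance alone gives about 1 in 20 groups. *Rps25* stood at 22.5 CPM in Del/+ replicate 4, the next Del/+ library being at 11.5 CPM. *Rps2* stood at 19.3 CPM in Del/Dup replicate 3, the next being at 10.6 CPM. *Rps24* stood at 86.7 CPM in Del/Dup replicate 2, the next being at 67.0 CPM. *Rpl4* stood at 217 CPM in Del/+ replicate 3, the next lowest being at 238 CPM.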

How the results depend on the processing

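The number of members called was 0 in every comparison in the edgeR fit and stayed at 0 in Dup/+ against wt under every alternative run. In Del/+ against wt it was 2 with DESeq2, which called 655 of all 15440 genes. It was 1 with the share of reads with several places as a covariate (*Rps25*), where 150 of all 15440 genes were called. When each library was left out in turn it was 0 to 1. The calls were *Rps28* without Del/+ replicate 1 (261 of all 15574 genes called) and *Rps18* without Del/+ replicate 4 (52 of all 15559). In Del/Dup against wt the number of members called was 2 with DESeq2, which called 183 of all 15440 genes. Over the libraries left out it was 0 to 1 (*Rps18* in each case). Over all genes 91, 18 and 216 were then called without wt replicate 5, Del/+ replicate 4 and Del/Dup replicate 3. In Del/+ against Dup/+ it was 1 in the low-share libraries and 1 with the covariate (*Rps25* in both). No Del/Dup fit was possible in the low-share libraries. Medians of the members moved by less than the spread between libraries (SD 0.08) under each alternative. Over the libraries left out they ran from 0.01 to 0.07 in Del/+, 0.02 to 0.08 in Dup/+, -0.04 to 0.04 in Del/Dup and -0.05 to 0.00 in Del/+ against Dup/+. With a replicate block no member was called, the medians were 0.04, 0.06, 0.01 and -0.03, and *Eif3c* in Del/Dup had an edgeR adjusted p = 0.0578. It had 0.0742 with the 2 groups alone. The causes were not tested. Of 1955 single-gene values over 17 named genes, none that was called changed sign, 74 that were not called did, 14 came to pass the threshold and 5 no longer passed it. A minimum of 1 or 20 CPM gave 61 or 40 members.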
